A study of Mus musculus with 6 samples.

Results

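The ZBTB transcription factors of 4T1 cells, which are a line from a mouse mammary carcinoma, were taken as the protein-coding genes whose GENCODE M21 symbol is Zbtb and a digit. The rule reads the symbol alone and found 41 genes among the 56748 gene identifiers measured in each library. The family itself was selected on its FPKM in treated against control libraries of this same comparison, so the counts and adjusted p-values of its members describe these genes and support nothing about the family. The study compared 3 control samples, collected at 48 h, with 3 samples that received Au/MoS2/Bi2S3 and irradiation in the near infrared (NIR), collected at the same time. All 6 samples carry the genotype label WT. Per the labels' protocols, the treated cells received 125 µg/mL of particles overnight, were irradiated for 8 min and were washed after 24 h more. Cells given particles alone or light alone were not analysed here. The samples come from 1 cell line and share 1 batch label, and the design text speaks of RNA pooled from cells of 3 individuals. The labels do not say that the replicates are separate cultures, so the spread that the p-values rest on may be a technical one.

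ZBTB proteins join a BTB domain, which pairs 2 protein chains and recruits corepressor complexes, to a set of C2H2 zinc fingers that read DNA. Most members that have been studied are repressors, and several decide the fate of blood and immune cells. Others read methylated CpG, bind telomere repeats or act on cell cycle genes together with or against MYC and p53. The symbol rule also takes in Zbtb8os, which encodes archease, a cofactor of the tRNA ligase complex, and not a BTB zinc finger protein.

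Promoter windows of 250 bases before to 50 bases after an annotated start were found in the RefSeq table (GRCm38.p6) for 36 of the 41 members, in 49 windows. The windows shown are those of the 3 members with the largest rise in the treated cells and of 2 of the 3 members that fell. Windows at annotated starts of members that moved in opposite directions can thus be read side by side. They were searched on both strands for the GC box GGGCGG, the E-box CACGTG, which MYC and MAX bind, and GCGCGC, the repeat read by Zbtb14, and every match is in capitals. The windows lie at chr11:69765662-69765961 on the plus strand (Zbtb4), chr10:81136021-81136320 on the plus strand (Zbtb7a), chr2:37430870-37431169 on the minus strand (Zbtb6), chr4:141444423-141444722 on the plus strand (Zbtb17) and chr2:181424339-181424638 on the minus strand (Zbtb46). Those of Zbtb7a, Zbtb6 and Zbtb46 start inside the GENCODE gene. Each reads 5′ to 3′ on the strand of its gene.
Zbtb4: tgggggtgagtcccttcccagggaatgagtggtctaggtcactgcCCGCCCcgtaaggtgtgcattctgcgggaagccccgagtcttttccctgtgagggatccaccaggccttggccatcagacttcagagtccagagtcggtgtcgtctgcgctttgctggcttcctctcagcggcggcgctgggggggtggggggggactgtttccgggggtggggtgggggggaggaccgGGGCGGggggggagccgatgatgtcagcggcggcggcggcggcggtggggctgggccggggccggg
Zbtb7a: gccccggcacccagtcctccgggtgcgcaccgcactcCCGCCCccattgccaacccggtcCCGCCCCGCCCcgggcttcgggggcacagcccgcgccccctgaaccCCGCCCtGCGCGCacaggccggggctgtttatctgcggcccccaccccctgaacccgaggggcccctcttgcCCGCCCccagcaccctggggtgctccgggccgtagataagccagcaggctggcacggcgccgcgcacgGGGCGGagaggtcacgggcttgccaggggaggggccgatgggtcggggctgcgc
Zbtb6: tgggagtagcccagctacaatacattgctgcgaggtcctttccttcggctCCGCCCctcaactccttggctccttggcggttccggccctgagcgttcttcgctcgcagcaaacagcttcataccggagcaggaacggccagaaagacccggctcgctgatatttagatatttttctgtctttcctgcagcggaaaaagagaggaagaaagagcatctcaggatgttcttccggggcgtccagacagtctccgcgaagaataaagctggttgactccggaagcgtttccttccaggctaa
Zbtb17: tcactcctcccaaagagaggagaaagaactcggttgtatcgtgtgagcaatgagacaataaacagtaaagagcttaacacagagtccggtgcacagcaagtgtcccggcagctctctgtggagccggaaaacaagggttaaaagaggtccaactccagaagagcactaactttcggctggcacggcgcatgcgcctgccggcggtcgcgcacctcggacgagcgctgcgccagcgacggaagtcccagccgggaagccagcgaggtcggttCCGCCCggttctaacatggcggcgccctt
Zbtb46: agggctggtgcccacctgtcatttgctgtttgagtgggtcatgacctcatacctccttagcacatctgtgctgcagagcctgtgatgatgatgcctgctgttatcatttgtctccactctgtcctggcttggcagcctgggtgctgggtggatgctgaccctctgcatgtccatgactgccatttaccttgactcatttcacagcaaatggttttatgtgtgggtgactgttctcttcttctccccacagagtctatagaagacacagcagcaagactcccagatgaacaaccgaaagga

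The window of Zbtb7a held 6 GC boxes, 1 GCGCGC and 31 CpG dinucleotides. That of Zbtb4 had 2 GC boxes and 22 CpG, and those of Zbtb6 and Zbtb17 had 1 GC box each with 19 and 26 CpG. The window of Zbtb46 had a single CpG and none of the 3 motifs, and was the only member window with the AP-1 letters TGACTCA. It lies far inside the gene, whose GENCODE start on the minus strand is at 181459426. It may hold intron and exon letters rather than a promoter, so it is no measure of the promoter of a member that fell. Over all member windows the median number of CpG was 25, against 7 over the 32851 windows of the table, and the median GC content was 63.3% against 52.7%. A GC box was found in 67.3% of the member windows and in 35.7% of all windows. GCGCGC was found in 26.5% against 13.6%, the E-box in 12.2% against 7.15%, CCAAT in 30.6% against 37.4% and TATAAA in 12.2% against 13.6%. The Kaiso letters TCCTGCNA were found in 8.16% of member windows, all of them in Zbtb18 and Zbtb37, and in 4.96% of all windows. Windows of the same gene can overlap, as several of Zbtb18 do, so the same letters can count in more than 1 window. The antioxidant response core TGACNNNGC was in none of the 49 member windows and in 12.4% of all. These motifs can overlap one another, a match is a description of the letters, and no match speaks only of these windows.

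The values are FPKM (fragments per kilobase of transcript, scaled to the library), a level per length that allows genes to be compared. Low FPKM step by the value of a single read, and counting these steps gave 32.6 to 38.1 M (1e6) reads at genes per library, with overlapping groups. The deposited FPKM hold the typical gene level between the groups, and the library size implied by the values was 0.719 to 0.839 of the recovered reads in controls and 1.32 to 1.33 in treated libraries. A gene is therefore read as higher or lower relative to the other genes. Among the epithelial markers, Krt8, Krt18, Krt19 and Epcam were detected and all 4 were lower in treated cells, while Cdh1, Cldn7 and Krt14 were at or near 0 in every library. Their summed FPKM was 1536 to 2262 in controls and 741 to 777 in treated libraries. Of the markers of other cells, Ptprc, Cd3e, Adgre1, Itgam, Dcn and Lum were at or near 0. Cd68 was at 132, 444 and 77 FPKM in controls and 260, 242 and 245 in treated libraries, and Col1a1 at 242, 112 and 754 against 31, 31 and 29. The summed FPKM of the fibroblast markers, 114 to 757 in controls and 30.6 to 33.0 in treated libraries, was nearly all Col1a1. Pdgfra averaged 1.16 FPKM in controls and 1.21 FPKM in treated libraries (limma adjusted p = 0.747). Pdgfrb, which was not tested, averaged 0.811 and 0.578 FPKM with overlapping groups. The summed FPKM of the endothelial markers was 0.744 to 1.16 against 1.18 to 1.75. The part of these markers in the results was not tested, and in bulk RNA fewer cells of a type and less RNA per cell cannot be told apart.

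More ZBTB genes reached 1 FPKM in the treated libraries. Of the 41 members 21, 22 and 20 stood at or above this level in the control libraries and 32, 31 and 31 did in the treated ones. Over all genes measured 10196 to 10478 stood at or above it in the control libraries and 10952 to 10962 in the treated ones. The median member was at 1.02, 1.18 and 0.967 FPKM in controls and 2.54, 2.49 and 2.60 FPKM in treated libraries. The groups did not overlap in either measure of the members, nor in the number of all genes. The FPKM of all members added up to 105.9, 110.1 and 105.4 in controls and to 142.4, 139.9 and 136.2 in treated libraries. In recovered reads, uncorrected for depth, the members together had 19340, 20848 and 14099 in controls and 39050, 37438 and 37334 in treated libraries.

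The makeup of that sum differed as well. Zbtb7b, Zbtb17 and Zbtb10 were the 3 highest members in every control library and made up 47.2%, 47.1% and 49.9% of the summed FPKM there. In treated libraries the same 3 genes made up 27.3%, 27.7% and 27.4%. Zbtb7a held 1.28% to 1.79% of the sum in controls and 6.53% to 6.96% in treated libraries, where it was the member with the highest level after Zbtb7b and Zbtb17. By mean FPKM, Zbtb7a stood at rank 15 of the 41 in controls and at rank 3 in treated cells, and Zbtb4 at rank 33 and rank 9.

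**Figure D1:**
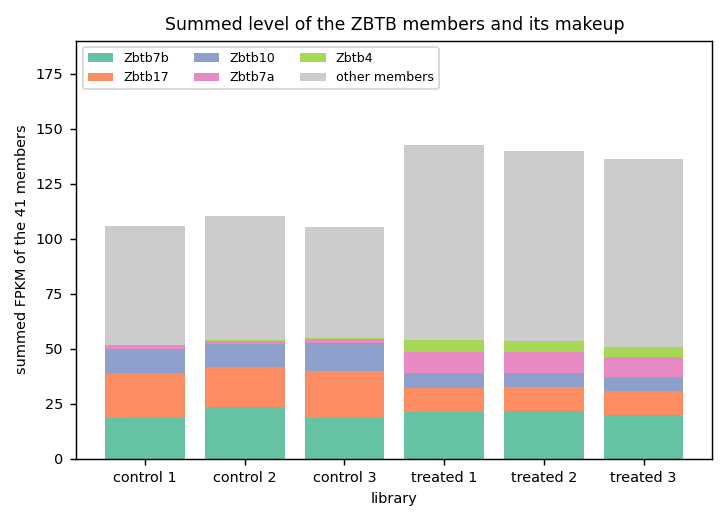
Summed FPKM of the 41 ZBTB members in each of the 6 libraries (bar height), divided into single members and the remainder. The 3 control bars reach 105.4 to 110.1 and the 3 treated bars 136.2 to 142.4, while the segments of Zbtb17 and Zbtb10 shrink.

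Of the 41 members, 38 were above 0 in at least 1 library and 31 reached 1 FPKM in at least 3 of the 6, the condition for testing. With limma on log2(FPKM + 1) and Benjamini-Hochberg adjustment over all 11118 genes tested, 17 members rose, 3 fell and 11 were not called at an adjusted p under 0.05. Of all genes tested, 27.9% were called higher and 28.3% lower, 56.1% in all. The median log2 fold change of treated over control was 0.54 over the members tested and -0.01 over all genes tested. The members' median was 0.30 against 0.03 with quantile normalization. It was 0.15 against 0.01 after each library was corrected for GC of the longest transcript, exon length and level (the GC correction). The short name stands for all 3 trends removed together, so a change under it cannot be assigned to base composition. The condition for testing bears on this count. It was met in the treated libraries alone by 12 members, of which 11 rose, and in the controls alone by Zbtb46, which fell. Members that pass through their higher group alone are more likely to differ, so these counts describe the members that passed and not the family. Of the 17 that met it in both groups, 6 rose, 2 fell and 9 were not called. Over all 41 members every treated library lay above every control library for 21 and below for 5. Of the 27756 genes above 0 in some library the groups were separated in this way for 24.4% and 15.9%. Among the 11118 genes tested these shares were 33.6% and 34.1%.

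Scaling by the recovered library size alone, in place of the deposited scaling, shifted the median log2 fold change of all genes tested to 0.59. On that scale 54.3% of all genes tested were called higher and 10.3% lower, and of the members 26 were called higher and 0 lower by limma, also 0 at an unadjusted p under 0.05, and the 3 that had fallen kept a negative sign. Of the 31 members tested, 24 lay above the median of all genes and 7 below in the deposited values, 21 and 10 after quantile normalization, and 18 and 13 after the GC correction.

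**Figure D2:**
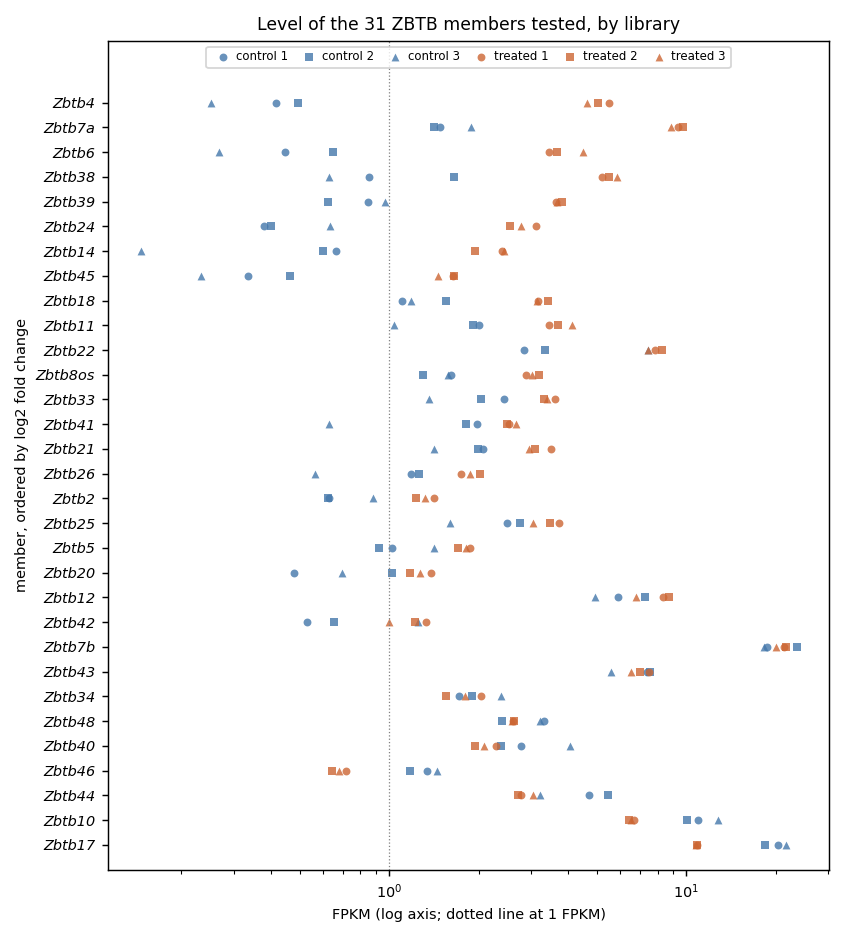
FPKM (log axis) of the 31 ZBTB members tested, 1 row per member ordered by log2 fold change, with a point for each control and treated library and a dotted line at 1 FPKM. For Zbtb4, Zbtb7a and Zbtb6 the 3 treated points lie well to the right of the 3 control points, and for Zbtb17 and Zbtb10 to the left.

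All 4 members that read or maintain methylated CpG were tested and all 4 rose, with a median log2 fold change of 1.54, where 27.9% of all genes tested rose. Of the 4, Zbtb4, Zbtb24 and Zbtb38 met the condition for testing through the treated libraries alone. Zbtb4 (ENSMUSG00000018750, chr11:69765912-69784023, plus strand, GRCm38), a relative of Kaiso that binds methylated CpG, was at 0.417, 0.493 and 0.252 FPKM in controls and at 5.49, 5.03 and 4.65 FPKM in treated libraries. The treated libraries were all high and close together, and no control reached 1 FPKM. Zbtb4 rose 13.0-fold from 0.388 ± 0.123 to 5.06 ± 0.422 FPKM (SD, n = 3), or by 2.13 ± 0.11 (SE) on the log2 scale (limma adjusted p = 0.000164). Behind these values stood 106, 127 and 48 recovered reads in controls and 2003, 1804 and 1669 in treated libraries.

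Zbtb38 (ENSMUSG00000040433, chr9:96682770-96752831, minus strand) also binds methylated CpG and has been studied in cell death and differentiation. Its levels were 0.852, 1.65 and 0.629 FPKM in controls and 5.22, 5.48 and 5.83 FPKM in treated libraries. Control 2 was the highest of the controls and still below every treated library. Zbtb38 rose 5.28-fold from 1.04 ± 0.537 to 5.51 ± 0.307 FPKM, a log2 fold change of 1.70 ± 0.19 (limma adjusted p = 0.000865).

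Zbtb24 (ENSMUSG00000019826, chr10:41450383-41465574, plus strand) is needed to keep repeats near centromeres methylated, and its loss in people causes an immunodeficiency with unstable centromeres. It was at 0.381, 0.400 and 0.633 FPKM in controls and at 3.12, 2.55 and 2.78 FPKM in treated libraries. Each treated library was several times higher than each control. Zbtb24 rose 5.98-fold from 0.471 ± 0.140 to 2.82 ± 0.289 FPKM, a log2 fold change of 1.38 ± 0.11 (limma adjusted p = 0.000372).

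Zbtb33, on chromosome X, encodes Kaiso, which binds methylated CpG and the letters TCCTGCNA. Its levels were 2.43, 2.04 and 1.37 FPKM in controls and 3.61, 3.33 and 3.39 FPKM in treated libraries, with control 1 closest to the treated group. Zbtb33 rose 1.77-fold, a log2 fold change of 0.61 ± 0.15 (limma adjusted p = 0.0161). That call was lost when any 1 treated library was left out, with adjusted p from 0.0518 to 0.063, and after quantile normalization (0.0512) or the GC correction (0.175 on the log2 scale, adjusted p = 0.237). The balance among the 4 methyl-CpG members also differed, since the ratio of Zbtb4 to Zbtb33 was 0.172, 0.242 and 0.185 in controls and 1.52, 1.51 and 1.37 in treated libraries.

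Of the 5 members tied to MYC, p53 and p21, 4 were tested, 3 rose and 1 fell, where 27.9% of all genes tested rose and 28.3% fell. Zbtb2 and Zbtb5 were tested through the treated libraries alone. Zbtb7a (ENSMUSG00000035011, chr10:81135220-81152995, plus strand) encodes LRF, a repressor that acts in blood lineages, silences fetal globin and has been studied both as an oncogene and as a tumour suppressor. It was at 1.48, 1.41 and 1.89 FPKM in controls and at 9.37, 9.73 and 8.89 FPKM in treated libraries, the highest treated level of any member that rose. Zbtb7a rose 5.85-fold from 1.59 ± 0.256 to 9.33 ± 0.421 FPKM, a log2 fold change of 2.00 ± 0.11 (limma adjusted p = 0.000185). Its recovered reads were 316, 305 and 301 in controls and 2867, 2929 and 2679 in treated libraries.

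Zbtb17 (ENSMUSG00000006215, chr4:141444654-141467930, plus strand) encodes MIZ1, which activates cell cycle inhibitors and other genes on its own and represses them when bound by MYC. It was at 20.4, 18.4 and 21.6 FPKM in controls and at 10.8, 10.9 and 10.8 FPKM in treated libraries. The treated libraries were all low and nearly equal. Zbtb17 fell 1.86-fold from 20.1 ± 1.65 to 10.8 ± 0.0531 FPKM, a log2 fold change of -0.83 ± 0.10 (limma adjusted p = 0.00126). Scaled by library size alone, the log2 fold change was -0.13 and the call was lost (adjusted p = 0.249).

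Zbtb2 and Zbtb5, both described as repressors of p21, rose by less. Zbtb2 was at 0.628, 0.624 and 0.880 FPKM in controls and at 1.42, 1.23 and 1.32 FPKM in treated libraries, a log2 fold change of 0.44 ± 0.10 (limma adjusted p = 0.00975). Zbtb5 was at 1.02, 0.923 and 1.42 FPKM in controls and at 1.87, 1.71 and 1.81 FPKM in treated libraries, a log2 fold change of 0.41 ± 0.11 (limma adjusted p = 0.0236). After the GC correction the values were -0.12 for Zbtb2 and -0.03 for Zbtb5, neither called. The call for Zbtb2 was also lost with quantile normalization (0.043, adjusted p = 0.797) and without the filter on low values (adjusted p = 0.0519). The call for Zbtb5 was also lost without control 1 (adjusted p = 0.0746) and without any 1 treated library (0.0656 to 0.0852). Quantile normalization, the fit without the filter on low values and a term for the replicate number lost it too. Zbtb49, an activator of p21, was not tested and averaged 0.633 FPKM in controls and 0.608 FPKM in treated libraries.

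**Figure D3:**
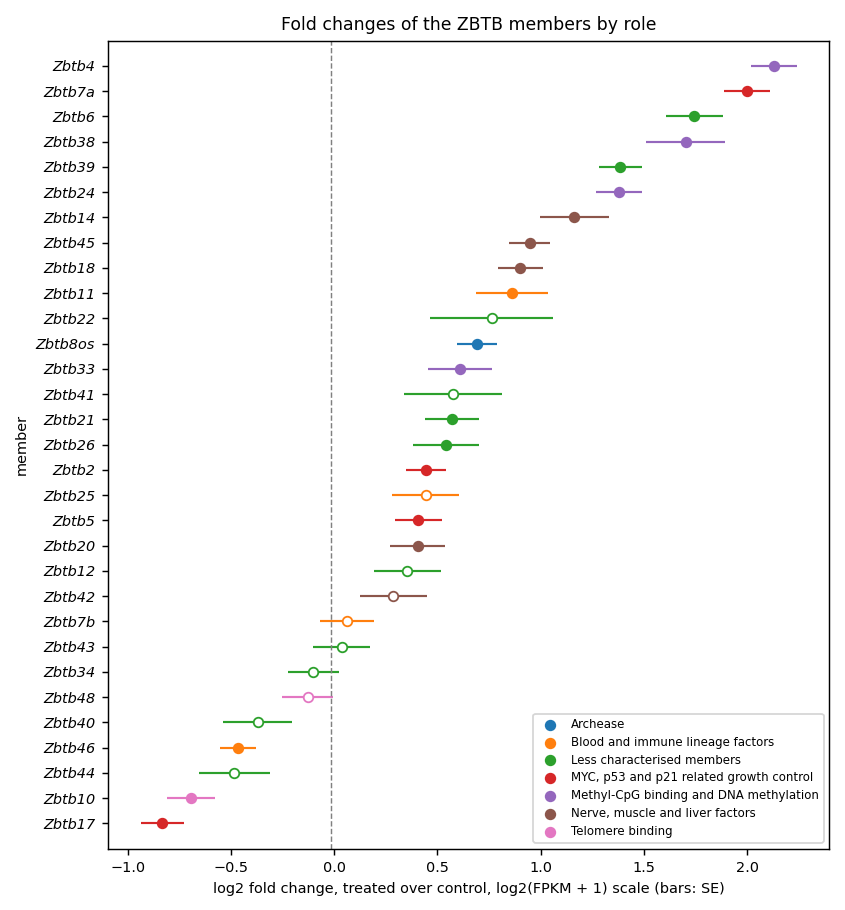
Log2 fold change of treated over control on the log2(FPKM + 1) scale with its SE for each ZBTB member tested, coloured by role, with filled points for members called at an adjusted p under 0.05. The 4 methyl-CpG members all lie to the right of 0, and Zbtb17, Zbtb10 and Zbtb46 are the 3 filled points to the left.

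Of the 7 members known from blood and immune lineages, 4 were tested, of which 1 rose and 1 fell. The one that fell, Zbtb46, was tested through the controls alone. Among all genes tested 27.9% were called higher and 28.3% lower. Zbtb7b (ENSMUSG00000028042, chr3:89377644-89394776, minus strand) encodes ThPOK, which commits T cells to the helper lineage, and had the highest mean level of all members in both groups, although Zbtb17 was higher in controls 1 and 3. It was at 18.7, 23.5 and 18.2 FPKM in controls and at 21.3, 21.5 and 20.0 FPKM in treated libraries, so the groups overlapped. The means were 20.1 ± 2.91 and 20.9 ± 0.867 FPKM, with a log2 fold change of 0.06 ± 0.13 (limma adjusted p = 0.702). On the library size scale and after quantile normalization Zbtb7b was called higher (adjusted p = 0.00565 and 0.0283). The ratio of Zbtb7a to its close relative Zbtb7b was accordingly 0.0795, 0.0602 and 0.103 in controls and 0.439, 0.452 and 0.446 in treated libraries.

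Zbtb46 (ENSMUSG00000027583, chr2:181387762-181459426, minus strand) marks classical dendritic cells and also some endothelial cells. It was at 1.34, 1.18 and 1.44 FPKM in controls and at 0.714, 0.644 and 0.680 FPKM in treated libraries, with no overlap. Zbtb46 fell 1.95-fold from 1.32 ± 0.134 to 0.679 ± 0.0352 FPKM, a log2 fold change of -0.47 ± 0.09 (limma adjusted p = 0.00506). Scaled by library size alone, the log2 fold change was -0.10 and the call was lost (adjusted p = 0.276).

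Zbtb11, needed for neutrophil formation and for mitochondrial function, was at 2.01, 1.92 and 1.04 FPKM in controls and at 3.45, 3.71 and 4.12 FPKM in treated libraries. It rose 2.27-fold, a log2 fold change of 0.86 ± 0.17 (limma adjusted p = 0.00705). Zbtb25, studied as a repressor in T cells, had 2.49, 2.76 and 1.61 FPKM in controls and 3.74, 3.48 and 3.05 FPKM in treated libraries. Its groups did not overlap but it was not called (0.44 ± 0.16, limma adjusted p = 0.0585), and without control 2 or control 3 it was (0.55 and 0.28, adjusted p = 0.0281 and 0.0476).

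Zbtb1, which lymphoid development depends on, did not meet the condition for testing. It was at 0.821, 0.706 and 0.434 FPKM in controls and at 0.978, 1.28 and 1.22 FPKM in treated libraries, 1.77-fold apart in the means. Zbtb16 (PLZF, a factor of innate-like T cells and of sperm stem cells) had 0, 0 and 2 recovered reads in controls and 1, 8 and 6 in treated libraries. Zbtb32, a repressor in lymphocytes, had 8, 7 and 0 reads against 16, 9 and 6. At this depth no level or difference can be read for these latter genes.

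All 5 members listed under nerve, muscle and liver were tested, with a median log2 fold change of 0.90, and 4 rose. Of these, Zbtb14, Zbtb45 and Zbtb20 were tested through the treated libraries alone. Beside this count, 27.9% of all genes tested were called higher and 28.3% lower. None fell by limma, nor at an unadjusted p under 0.05 (0 of 5). Zbtb14 (ENSMUSG00000049672, chr17:69383050-69391199, plus strand) encodes ZF5, a repressor of GC-rich promoters including that of Myc. By that description it could also stand with the members tied to MYC, so the counts of both groups depend on its placement. It was at 0.662, 0.600 and 0.146 FPKM in controls and at 2.40, 1.94 and 2.43 FPKM in treated libraries. Control 3 was the lowest library, with 16 recovered reads. Zbtb14 rose 4.80-fold from 0.469 ± 0.282 to 2.25 ± 0.274 FPKM, a log2 fold change of 1.16 ± 0.17 (limma adjusted p = 0.00202). It shares 12.1% of its exon bases with another gene.

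Zbtb45 (ENSMUSG00000049600, chr7:13003898-13010034, minus strand), which has been linked to glial differentiation, was at 0.334, 0.464 and 0.233 FPKM in controls and at 1.64, 1.66 and 1.46 FPKM in treated libraries. Every treated library was above every control. Zbtb45 rose 4.61-fold from 0.344 ± 0.116 to 1.58 ± 0.108 FPKM, a log2 fold change of 0.95 ± 0.10 (limma adjusted p = 0.000701).

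Zbtb18 (RP58) represses genes during cortical neuron and muscle differentiation. It was at 1.10, 1.55 and 1.18 FPKM in controls and at 3.17, 3.43 and 3.13 FPKM in treated libraries, and rose 2.54-fold, a log2 fold change of 0.90 ± 0.11 (limma adjusted p = 0.00113). Its close relative Zbtb42, found at muscle nuclei, averaged 0.810 FPKM in controls and 1.18 FPKM in treated libraries and was not called (0.29 ± 0.16, limma adjusted p = 0.18). Without control 3 Zbtb42 was called higher (0.45, adjusted p = 0.0101), and its sign was negative with quantile normalization (-0.12) and after the GC correction (-0.011). The ratio of Zbtb18 to Zbtb42 was 2.08, 2.38 and 0.948 in controls and 2.39, 2.81 and 3.14 in treated libraries.

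Zbtb20, a repressor of alpha-fetoprotein in liver and a factor of the hippocampus, was at 0.480, 1.03 and 0.696 FPKM in controls and at 1.39, 1.17 and 1.27 FPKM in treated libraries. The rise of 0.40 ± 0.13 on the log2 scale (limma adjusted p = 0.0405) was the one nearest the threshold. It was lost without control 1 (0.104), without control 3 (0.06) and without any 1 treated library (0.0845 to 0.125). The call was also lost with a pseudocount of 0.1, without the filter on low values, with sample weights per group and with a term for the replicate number. The sign was negative after quantile normalization (-0.01) and after the GC correction (-0.17).

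Both members that bind telomere repeats were tested, 1 fell and 0 rose by limma (also 0 at an unadjusted p under 0.05). Over all genes tested 28.3% fell and 27.9% rose. Zbtb10 (ENSMUSG00000069114, chr3:9250602-9285333, plus strand) binds a variant of the telomere repeat and is known as a repressor of Sp1 genes. It was at 10.9, 10.1 and 12.7 FPKM in controls and at 6.68, 6.39 and 6.53 FPKM in treated libraries. All treated libraries were below all controls. Zbtb10 fell 1.72-fold from 11.2 ± 1.36 to 6.53 ± 0.148 FPKM, a log2 fold change of -0.69 ± 0.12 (limma adjusted p = 0.00353). Scaled by library size alone, Zbtb10 was at -0.02 and not called (adjusted p = 0.829). Its recovered reads, before any scaling, were 2529, 2367 and 2211 in controls and 2227, 2093 and 2141 in treated libraries. Zbtb48 (TZAP), which binds long telomeres and promotes their trimming, averaged 2.97 FPKM in controls and 2.61 FPKM in treated libraries and was not called (-0.13, limma adjusted p = 0.401). It was called lower with quantile normalization (-0.37, adjusted p = 0.0482) and higher with scaling by library size (0.42, adjusted p = 0.0145).

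Among the 17 less characterised members 11 were tested and 4 rose, with a median log2 fold change of 0.54. Zbtb6, Zbtb39 and Zbtb26, which rose, and Zbtb41, which was not called, were tested through the treated libraries alone. The shares over all genes tested were 27.9% higher and 28.3% lower. No member of this group was called lower by limma, and 1 was lower at an unadjusted p under 0.05. Zbtb6 (ENSMUSG00000066798, chr2:37425500-37443171, minus strand) was at 0.447, 0.646 and 0.269 FPKM in controls and at 3.44, 3.66 and 4.48 FPKM in treated libraries. The lowest treated library was more than 5 times the highest control. Zbtb6 rose 8.51-fold from 0.454 ± 0.189 to 3.86 ± 0.551 FPKM, a log2 fold change of 1.74 ± 0.14 (limma adjusted p = 0.000361).

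Zbtb39 (ENSMUSG00000044617, chr10:127739538-127747349, plus strand) was at 0.847, 0.624 and 0.967 FPKM in controls and at 3.65, 3.82 and 3.68 FPKM in treated libraries. All 3 controls were below 1 FPKM and the treated libraries were close together. Zbtb39 rose 4.58-fold from 0.813 ± 0.174 to 3.72 ± 0.0914 FPKM, a log2 fold change of 1.38 ± 0.10 (limma adjusted p = 0.000317).

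The smaller rises in this group were those of Zbtb21 and Zbtb26. Zbtb21 was at 2.07, 2.00 and 1.41 FPKM in controls and at 3.51, 3.09 and 2.95 FPKM in treated libraries (0.57 ± 0.13, limma adjusted p = 0.011). Its call was lost without treated 1 (0.52, adjusted p = 0.0511), with quantile normalization (0.30, 0.0519) and after the GC correction, where the log2 fold change was 0.15 (0.33). Zbtb26 was at 1.19, 1.26 and 0.562 FPKM in controls and at 1.74, 2.02 and 1.87 FPKM in treated libraries (0.54 ± 0.16, limma adjusted p = 0.0287). Its call was lost without any 1 treated library (0.069 to 0.0931), without the filter on low values (0.0882) and with quantile normalization (0.202). After the GC correction the log2 fold change of Zbtb26 was -0.00364.

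The calls of Zbtb22 and Zbtb41 varied with control 3 and with the processing. Zbtb22 was at 2.85, 3.35 and 7.46 FPKM in controls and at 7.86, 8.26 and 7.43 FPKM in treated libraries, so that only control 3 overlapped the treated group. Its log2 fold change was 0.76 ± 0.30 (limma adjusted p = 0.0689), and 1.11 without control 3 (0.000384). With all libraries kept, Zbtb22 was called higher with scaling by library size (1.40, adjusted p = 0.00286) and after the GC correction (0.97, 0.0146). It was also called with sample weights per group (0.0314). Zbtb22 shares 149 exon bases, 5.57% of its own, with Tapbp on the same strand, which stood at 196.5 ± 81.6 FPKM in controls and 75.7 ± 1.78 FPKM in treated libraries. Zbtb41 was at 1.98, 1.82 and 0.630 FPKM in controls and 2.54, 2.49 and 2.67 FPKM in treated libraries (0.58 ± 0.24, limma adjusted p = 0.0809), and without control 3 it was called at a smaller log2 fold change of 0.30 (0.0177). With all libraries kept, Zbtb41 was called higher with scaling by library size (1.04, adjusted p = 0.00808) and with sample weights per group (0.0424).

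Zbtb44 and Zbtb40 were lower in every treated library than in any control without passing the test. Zbtb44 was at 4.72, 5.45 and 3.22 FPKM in controls and at 2.78, 2.71 and 3.06 FPKM in treated libraries (-0.48 ± 0.17, limma adjusted p = 0.053). It was called lower without control 3 (0.0019), with quantile normalization (0.00882) and after the GC correction (0.00194), and its sign was positive with scaling by library size only (0.09). Zbtb40 averaged 3.08 FPKM in controls and 2.11 FPKM in treated libraries (-0.37 ± 0.17, limma adjusted p = 0.104), was called lower without control 2 (0.0336), with quantile normalization (0.0232) and after the GC correction (0.00979), and was at 0.17 with scaling by library size only. Zbtb12, Zbtb43 and Zbtb34 had adjusted p from 0.108 to 0.837, and Zbtb12 was called higher without control 2 (0.032). After the GC correction Zbtb12 was called higher (0.79, adjusted p = 0.0361) and Zbtb34 lower (-0.57, adjusted p = 0.0145), and with scaling by library size Zbtb34 was called higher (0.39, adjusted p = 0.0201).

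Of the 10 members that were not tested, Zbtb3 differed most. It was at 0.0638, 0.0629 and 0 FPKM in controls, from 4, 4 and 0 recovered reads, and at 1.19, 0.531 and 0.902 FPKM in treated libraries, from 107, 47 and 80 reads. The means were 20.7-fold apart, a ratio that rests on few control reads. In a fit without the filter on low values, where 14.7% of 27756 genes were called higher, Zbtb3 was called (0.83 ± 0.14, limma adjusted p = 0.0117). Zbtb8a, Zbtb37 and Zbtb49 were not called in that fit. Zbtb7c, Zbtb8b and Zbtb9 were listed at 0 in all 6 libraries, where 3 reads, the limit a count of 0 allows, would be 0.0103 to 0.0368 FPKM (counting error only). Zbtb9 shares 84.4% of its exon bases with Ggnbp1 on the same strand, so its 0 is uncertain.

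Zbtb8os, the archease gene, was at 1.62, 1.30 and 1.58 FPKM in controls and at 2.90, 3.19 and 3.01 FPKM in treated libraries. It rose 2.02-fold, a log2 fold change of 0.69 ± 0.10 (limma adjusted p = 0.00196). After the GC correction the call was lost (0.26, adjusted p = 0.0897). Without this gene, 40 members remain, of which 30 were tested, 16 rose and 3 fell, with a median log2 fold change of 0.49. The shares of all genes tested were 27.9% higher and 28.3% lower.

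Members that lie side by side in the genome had unlike values. Zbtb6 and Zbtb26 overlap on the same strand of chromosome 2 and share 449 exon bases, 8.84% of those of Zbtb6 and 4.73% of those of Zbtb26. The ratio of Zbtb6 to Zbtb26 was 0.377, 0.513 and 0.478 in controls and 1.97, 1.81 and 2.40 in treated libraries, so the more abundant gene of the pair was Zbtb26 in every control and Zbtb6 in every treated library. Reads from the shared bases cannot be assigned to one of the genes. Zbtb25 and Zbtb1 start head to head on chromosome 12, 663 bases apart, and the ratio of Zbtb1 to Zbtb25 was 0.329, 0.256 and 0.270 in controls and 0.262, 0.368 and 0.401 in treated libraries, which overlap. Zbtb34 and Zbtb43, 18962 bases apart on chromosome 2, had ratios of 0.233, 0.252 and 0.426 against 0.272, 0.222 and 0.275. In all, 18 of the 41 members share exon bases with some other gene, and 5 share 10% or more.

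Level, base composition and length were set beside the direction. The 17 members that rose had a median control level of 1.00 FPKM and a highest of 1.95 FPKM, the 3 that fell a median of 11.2 FPKM, the 11 not called 3.08 FPKM and all genes tested 6.18 FPKM. Spearman's rho between log2 fold change and mean level was -0.288 over the 31 members and -0.434 over the 11118 genes, a description across genes that share the same 6 libraries. Over the same members rho was -0.163 with GC content and -0.025 with exon length. The median GC content of the longest transcript was 46.2% in members that rose, 49.8% in those that fell, 55.4% in those not called and 49.9% in all genes tested. Median exon lengths were 6138, 7414, 5225 and 4124 bases in the same order. After the GC correction 12 members were called higher and 6 lower, against 23.6% and 22.3% of all genes. With quantile normalization the members' counts were likewise 12 and 6, against 27.2% and 24.5% of all genes. The part of level and composition in the results was not tested further.

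**Figure D4:**
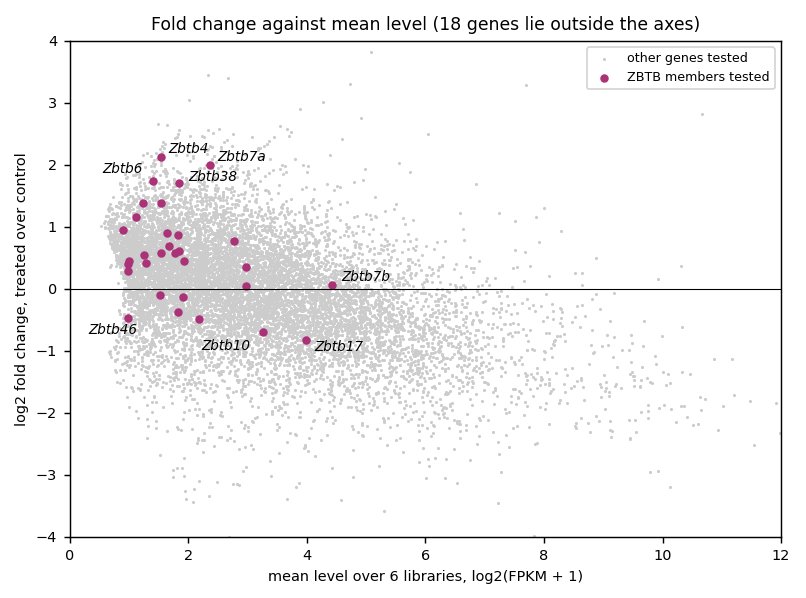
Log2 fold change of treated over control against the mean level over the 6 libraries, both from log2(FPKM + 1), for the ZBTB members tested and all other genes tested (18 genes lie outside the axes). Among the members with the largest rise, Zbtb4 and Zbtb6 sit at low mean levels and Zbtb7a sits higher. The 3 that fell include 2 of the most abundant members.

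Under all 15 alternative settings that tested them, 10 members kept their call as higher: Zbtb4, Zbtb7a, Zbtb6, Zbtb38, Zbtb39, Zbtb24, Zbtb14, Zbtb45, Zbtb18 and Zbtb11. With a minimum of 5 FPKM in 3 libraries, 2 of these were still tested and called higher, Zbtb7a and Zbtb38, where 20.7% of all genes were called higher and 37.6% lower. Their sizes depended on the setting: Zbtb4 ranged from 1.71 after the GC correction to 3.43 with a pseudocount of 0.1, Zbtb6 likewise from 1.23 to 2.89 and Zbtb14 from 0.63 to 2.21, while Zbtb7a ranged from 1.89 to 2.56. The 3 members that fell lost their call only with scaling by library size, and after the GC correction they were at -0.41 (Zbtb17), -0.79 (Zbtb10) and -1.02 (Zbtb46).

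**Figure D5:**
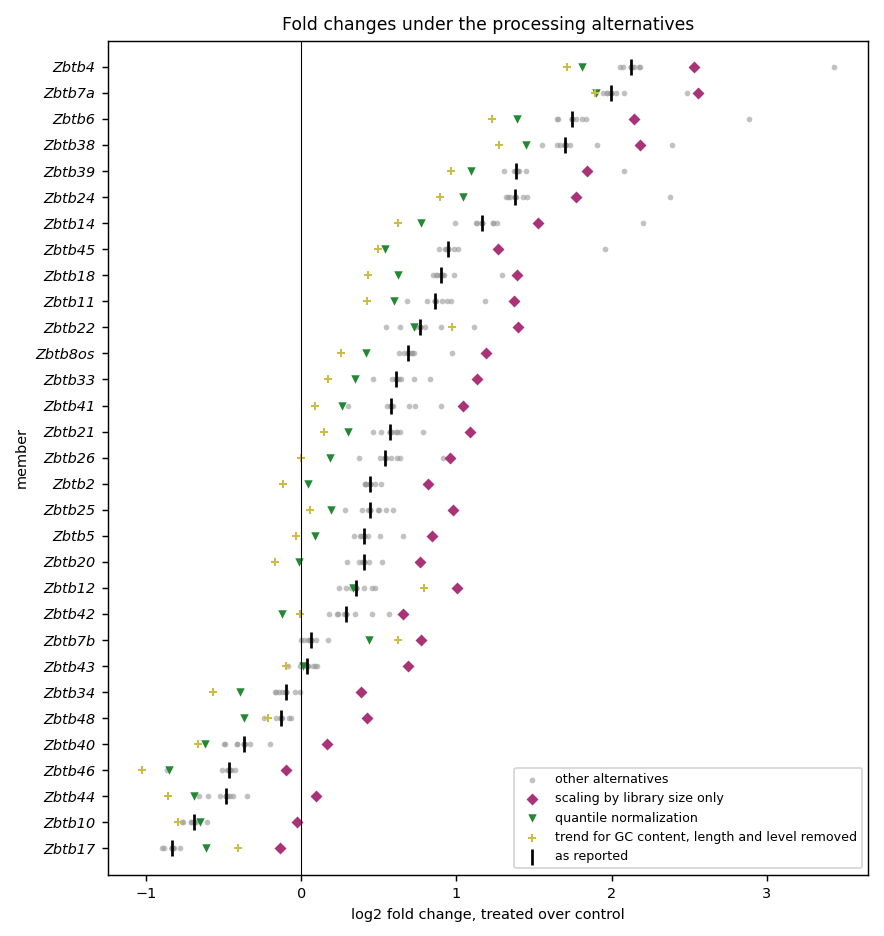
Log2 fold change of treated over control for each ZBTB member tested, as reported (black bar) and under the processing alternatives (coloured and grey points). The points of Zbtb4 and Zbtb7a all lie above 1.71, and those of Zbtb17, Zbtb10 and Zbtb46 come close to 0 with scaling by library size only.

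BTB zinc finger genes that carry other names were examined beside the family: of 8 listed, 7 were tested, 5 rose and 0 fell by limma (0 at an unadjusted p under 0.05), with a median log2 fold change of 1.21. Of the 5, Hic1, Hic2 and Bcl6 had no control at 1 FPKM and were tested through the treated libraries alone. The share of all genes tested to set beside the counts of this and the other lists is 27.9% higher and 28.3% lower. Hic1, a growth-suppressing repressor, rose 9.67-fold from 0.659 ± 0.205 to 6.37 ± 0.807 FPKM, a log2 fold change of 2.15 ± 0.14 (limma adjusted p = 0.000251). Bcl6, the repressor of germinal centre B cells, rose 5.30-fold from 0.454 ± 0.331 to 2.41 ± 0.147 FPKM, a log2 fold change of 1.25 ± 0.17 (limma adjusted p = 0.00163). Of BTB proteins without zinc fingers 4 of 6 were tested. Keap1, the adaptor that marks NRF2 for degradation, rose from 4.36 to 9.48 FPKM (0.97, limma adjusted p = 0.00172), and Nacc1 and Kctd15 also rose. Spop, a ubiquitin ligase adaptor, was called lower (88.4 to 55.4 FPKM, -0.65 ± 0.17, limma adjusted p = 0.0171), a call lost without control 1 or any 1 treated library (0.056 to 0.0688) and positive in sign with scaling by library size (0.09), quantile normalization (0.17) or the GC correction (0.02).

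Of 18 corepressors that BTB domains recruit, all tested, 5 rose, 4 fell and 9 were not called, with a median log2 fold change of 0.05, shares close to those of all genes. Bcor, the corepressor that binds BCL6, rose from 2.66 ± 0.318 to 7.21 ± 0.319 FPKM (1.17, limma adjusted p = 0.000508). Hdac5, a histone deacetylase of the class that shuttles between nucleus and cytoplasm, fell from 78.4 ± 14.8 to 23.9 ± 0.754 FPKM (-1.66, limma adjusted p = 0.000531). Ncor1 averaged 17.9 and 18.0 FPKM (limma adjusted p = 0.859), Hdac3, the deacetylase of the NCOR complexes, 11.6 and 13.5 FPKM (0.188), and Cul3, the scaffold that BTB adaptors bind, 27.7 and 23.5 FPKM (0.102).

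Genes around the MIZ1 and methyl-CpG members were also read from fixed lists. Of 10 MIZ1 partners and reported targets 8 were tested, 2 rose and 3 fell. Myc was at 7.27, 11.1 and 5.81 FPKM in controls and at 3.51, 3.32 and 3.00 FPKM in treated libraries and fell 2.46-fold, a log2 fold change of -1.04 ± 0.22 (limma adjusted p = 0.008), a call lost with scaling by library size only (-0.43, adjusted p = 0.174). Ambra1, an autophagy gene reported as a MIZ1 target, rose from 6.92 to 11.9 FPKM (0.71, limma adjusted p = 0.00799). Of 7 methyl-CpG readers outside the family, all tested, 1 rose and 3 fell. The calls of all 3 that fell, Mbd2, Uhrf1 and Uhrf2, were lost without any 1 treated library and with scaling by library size, and 1 of the list was called lower with quantile normalization. Mbd1 rose from 2.01 to 5.01 FPKM (1.02, limma adjusted p = 0.00402). Mbd2 was called lower, from 74.3 ± 45.5 to 27.0 ± 0.319 FPKM (-1.26 ± 0.39, limma adjusted p = 0.034), and that call was lost without control 1 (0.0675) or any 1 treated library (0.0872 to 0.0921). Of 6 Kaiso partners and reported targets 4 were tested, 1 rose and 0 fell by limma (0 at an unadjusted p under 0.05). The one that rose was Ctnnd1, p120 catenin, a binding partner of Kaiso, from 2.97 to 4.41 FPKM (0.46, limma adjusted p = 0.0329), a call lost without control 1 (0.0663) or any 1 treated library (0.0867 to 0.118).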

How the data were processed

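RNA was measured in 6 libraries of 4T1 cells, 3 control and 3 treated, grouped and numbered as in the sample titles and treatment labels. The authors deposited 1 FPKM value per gene and library, per the file headers. No source used here names the aligner, counter, genome build, annotation or strand setting. Symbols, coordinates, exon lengths and GC content came from GENCODE M21 (GRCm38) for 52073 of 56748 identifiers. Low FPKM were whole multiples of 1 read, with 92.3% to 93.4% of values under 200 reads whole within 0.02, which gave the recovered reads.

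Genes that reached 1 FPKM in 3 or more of the 6 libraries were tested with limma 3.58.1 in R 4.3.3 (trended prior variance) on log2(FPKM + 1), which understates the change of low genes. Adjustment (Benjamini-Hochberg) covered all 11118 genes, with calls under 0.05. Values are means ± SD of 3 libraries, and folds are ratios of mean FPKM. The fit was also run on simulated data with known changes, with the same SD in both groups. In the real libraries controls spread more, so that run says nothing about false calls here.

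The members, lists and roles were chosen with earlier results of these data known, so counts are descriptions and no list was tested. By rule every member is named, with full statistics for the 8 largest rises, the falls and the 3 highest control levels. From each list the largest called rise and fall are named, and Myc, Ncor1, Hdac3, Cul3 and Bcl6 in any case.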

Additional observations from a re-analysis of the deposited data

How the results depend on the processing

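The 17 members called higher and the 3 called lower became 2 and 2 with a minimum of 5 FPKM. They became 26 and 0 with scaling by library size only. Both quantile normalization and the correction for transcript GC, exon length and level gave 12 and 6. Of all genes tested, 27.9% were called higher and 28.3% lower as reported, and 20.7% and 37.6% with that minimum. Scaling by library size gave 54.3% and 10.3%, quantile normalization 27.2% and 24.5%, and the correction 23.6% and 22.3%. Leaving out 1 library at a time gave 12 to 20 higher and 3 to 4 lower. The shares of all genes tested without 1 library ranged from 20.5% to 32.7% higher and from 19.2% to 34% lower. In those fits a group of 2 stood against 3. Of the 47 genes tested on the lists around the family, 17 were called higher and 11 lower, to be read beside the same shares of all genes. These became 11 higher of 38 tested with a minimum of 5 FPKM, and 34 higher and 2 lower with scaling by library size only. Without 1 library they were 12 to 20 higher and 5 to 13 lower. A pseudocount of 0.1, no filter on low values, no trend in the prior variance and sample weights per group kept the members' counts within 1.5 times. The cause of these shifts was not tested, except that the higher minimum left 8 members to test.

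With a term for the replicate number (replicate block), 15 members were called higher and 3 lower, with the calls of Zbtb5 and Zbtb20 lost. In that fit 23.5% of all genes tested were called higher and 24% lower, and 7 genes of the lists were called lower in place of 11. Deviations of same-numbered samples correlated at -0.0538, -0.111 and -0.140 across genes, and no sample correlated best with its own number. The deviations are taken from the mean of 3 libraries in each group, which ties them to one another. These values therefore cannot decide whether same-numbered samples shared a culture or a preparation.

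Signs turned as follows. After that correction, log2 fold changes were -0.00364 (Zbtb26), -0.12 (Zbtb2), -0.032 (Zbtb5), -0.17 (Zbtb20), -0.011 (Zbtb42), -0.10 (Zbtb43) and 0.022 (Spop). With quantile normalization they were -0.012 (Zbtb20), -0.12 (Zbtb42), 0.23 (Cul3) and 0.17 (Spop). With scaling by library size they were 0.39 (Zbtb34), 0.42 (Zbtb48), 0.17 (Zbtb40), 0.093 (Zbtb44), 0.49 (Cul3) and 0.089 (Spop). Leaving out 1 library gave -0.084 (without control 3) to 0.10 (without control 2) for Zbtb43, with -0.0060 without treated 1, and -0.17 (without control 3) to 0.27 (without control 2) for Ncor1. Zbtb7b was at -0.000265 without control 3.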

Other observations

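Replicates of the ZBTB genes differed more among control than among treated libraries. The median SD of log2(FPKM + 1) over the 31 members tested was 0.19 in controls and 0.07 in treated libraries, and it was larger in controls for all 31. Over all 11118 genes tested the medians were 0.27 and 0.07, with the larger value in controls for 10124. The lowest control value of a member was in control 3 for 15 of the 31, in control 2 for 10 and in control 1 for 6. Zbtb14, Zbtb41 and Zbtb6, for example, had their lowest control value in control 3, and Zbtb24, Zbtb17 and Zbtb10 their highest.

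The balance within some pairs of related or neighbouring members differed between the groups. For the neighbours Zbtb1 and Zbtb25, and Zbtb34 and Zbtb43, the ratios of the groups overlapped, as given above. The ratio of Zbtb8os to its neighbour Zbtb8a was 5.11, 5.05 and 7.18 in controls and 11.2, 8.84 and 8.84 in treated libraries. These neighbours share 264 exon bases on opposite strands, and Zbtb8os is no relative of Zbtb8a. Zbtb8a had only 23, 19 and 12 recovered reads in controls and 27, 37 and 35 in treated libraries. The ratio of the methyl-CpG binders Zbtb4 and Zbtb38 was 0.490, 0.299 and 0.401 in controls and 1.05, 0.918 and 0.797 in treated libraries, although both rose.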
